A study of Saccharomyces cerevisiae with 4 samples.

Results

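Where a pair of neighbouring genes point toward each other, the stretch between them holds the 3′ ends of both and no annotated gene start. In the R64-1-1 annotation of *Saccharomyces cerevisiae*, 6238 intervals separate adjacent nuclear genes, and 1446 of them lie between protein-coding genes that converge without overlapping. The 1398 convergent intervals of 50 to 1500 bp are described here, after 33 shorter and 15 longer ones were left out. Their lengths had a median of 224 bp with quartiles of 142 and 332 bp, and the intervals nearest to the limits measured 50 and 49 bp at the lower limit and 1484 and 1562 bp at the upper limit. Together they cover 388 kb, or 3.22% of the nuclear genome. Each interval was read as 2 sides, which are its 2 strands, and each side is named by the gene whose transcription would run into it and the gene that it faces. Starts on a side thus lie downstream of the same-strand gene and run antisense into the opposite gene. No expression value was used to choose the intervals, of which 96 hold an annotated origin of replication, 21 a long terminal repeat and 5 a centromere.

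RNA polymerase II is released from the template downstream of the cleavage and polyadenylation site, and in a compact genome this happens close to, or inside, the neighbouring gene. Set2 travels with the elongating polymerase and methylates lysine 36 of histone H3 toward the 3′ ends of genes, where the mark directs the Rpd3S deacetylase and keeps transcribed chromatin closed to initiation. Capped RNA 5′ ends were mapped in *set2*Δ cells, with the ∆set2::kanMX4 allele of the deletion collection, and in their parent BY4741 (his3Δ1 leu2Δ0 ura3Δ0 met15Δ0 MAT a), whose auxotrophic alleles both strains carry. Cultures of both grew in YPD at 30 °C and were harvested at OD 1 (the labels give 1% glucose), and the series calls its 2 libraries per strain biological duplicates. Library preparation used 10 µg of total RNA and 5′ adapters that carry an 8 nt barcode, and the libraries were read from both ends over 50 bp. A count stands for a 5′ end placed at a base, and whether reads with the same barcode were collapsed was not given in the sources used here.

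The sequence around the most used start is shown for 6 sides with a higher normalized level in *set2*Δ and for 2 with a lower one, since it shows where in the interval and on which dinucleotide the RNA begins. Each line gives, 5′ to 3′ on the strand of the RNA in RefSeq's R64 genome, the 20 bases before the start and the first 10 bases of the RNA, and the capitals mark the last base before the start and the start itself.
PSP2 side of PSP2 and PPZ1: atttcttaaagaagttttaTGaagtttcgt
VPS41 side of VPS41 and PDC2: tccagtttccagtgatcggTAcaggctaaa
CDC24 side of CDC24 and CLN3: tatacccattatattgatcCAcacttagta
MPT5 side of MPT5 and YGL176C: aaagtcccaaaatttgagcCGgaaaaaaat
EMC6 side of EMC6 and PUF3: gttgcagaaataagaagagCGtaagagcgc
RTN2 side of RTN2 and ACK1: tttatttagtttaaaataaTGagtaaatga
MFA2 side of MFA2 and MPF1: cttaatttttgacgacaacCAagaggtcaa
YJL077W-B side of YJL077W-B and ICS3: cctaatcgagataccagagCAcggaacagg
The PSP2 start lies at chrXIII:239050 on the plus strand, 319 bp past the end of PSP2 and 408 bp before that of PPZ1, and held 15 and 15 counts in *set2*Δ, against 0 and 1 in BY4741. The VPS41 start, at chrIV:607129 on the plus strand, had 16 and 16 counts in *set2*Δ, against 5 and 1 in BY4741. The YJL077W-B start, at chrX:294653 on the plus strand and 13 bp from the end of ICS3, had 17 and 18 counts in *set2*Δ and 14 and 15 in BY4741. On the same strand, the starts past CDC24, MPT5, EMC6, RTN2 and MFA2 lie at chrI:65502, chrVII:170713, chrXII:121848, chrIV:95950 and chrXIV:352546, and all 8 starts fall between annotated genes. Budding yeast RNA polymerase II commonly initiates at a pyrimidine followed by a purine. A pyrimidine and a purine stood at these bases in 10 of the 10 sides with the highest ratio of *set2*Δ to BY4741 counts and in 23 of the 24 leading starts examined, and 8 of the 10 had an A at the eighth base before the start.

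Over all starts of the intervals the same preference was measured. A pyrimidine and purine pair occupied 24.3% of all positions in the intervals. On the plus strand, it was found at 91.2% of the 226 positions with at least 5 counts in replicate 1 of *set2*Δ and at 93.1% of the 174 in replicate 2, and at all 20 and all 14 such positions in BY4741. On the minus strand, where the deposited positions needed a shift of 42 bp to reach the RNA's first base, the share was 87.8% of 148 and 84.7% of 111 positions in *set2*Δ and 10 of 12 and 2 of 3 in BY4741. As listed, before the shift, it was 27.8% and 30.6% in the *set2*Δ libraries, close to the share of the sequence itself. Among positions with any count, 58.1 to 65.3% in *set2*Δ and 48.4 to 56.7% in BY4741 had the pair, less often than positions with 5 or more counts in every library.

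The libraries held 1267578 and 1099482 counts in *set2*Δ, against 452888 and 375442 in BY4741, with none in the mitochondrial genome. Within SET2 itself, 0 and 1 sense counts were found in *set2*Δ and 9 and 2 in BY4741, few counts for a check of the label and fewest in the deeper *set2*Δ libraries. LEU2, MET17 (MET15) and URA3 had no sense count in any library, and HIS3, of which the his3Δ1 allele removes only a part, had 15 and 12 counts in *set2*Δ and 4 and 3 in BY4741. Counts at single positions piled up near 16. In replicate 1 of *set2*Δ, 5855 positions held 16 counts and 3207 held 13, and in replicate 2 these were 4326 and 2755. In BY4741, 1286 and 1018 positions held 16 counts, and 1103 and 903 held 13. Counts at high positions thus did not follow depth, and 46.6 and 47.0% of the counts in *set2*Δ and 44.4 and 43.5% in BY4741 lay at positions of 8 or more. In the convergent intervals those shares were 11.2 and 10.8% in *set2*Δ and 5.86 and 4.90% in BY4741, and the highest position held 19 counts.

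Convergent intervals took up a small part of each library, and a larger part in *set2*Δ. They held 13532 and 10636 counts in *set2*Δ, which are 1.07% (95% Wilson interval 1.05 to 1.09) and 0.967% (0.949 to 0.986) of the libraries. In BY4741 they held 2337 and 1795 counts, or 0.516% (0.496 to 0.537) and 0.478% (0.457 to 0.501). The means were 1.02% ± 0.0708 in *set2*Δ and 0.497% ± 0.0268 in BY4741 (SD, n = 2 each), a ratio of 2.05. All values in *set2*Δ lay above all in BY4741, and the exact two-sided permutation test gave p = 0.33, the smallest that 2 libraries against 2 allow. The intervals cover counting error only. The ratio was 1.43 when positions with 8 or more counts in any library were left out everywhere, 1.75 when each used position counted once, and 2.08 when counts were inverted for a limit of 16 molecules a position.

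**Figure D1:**
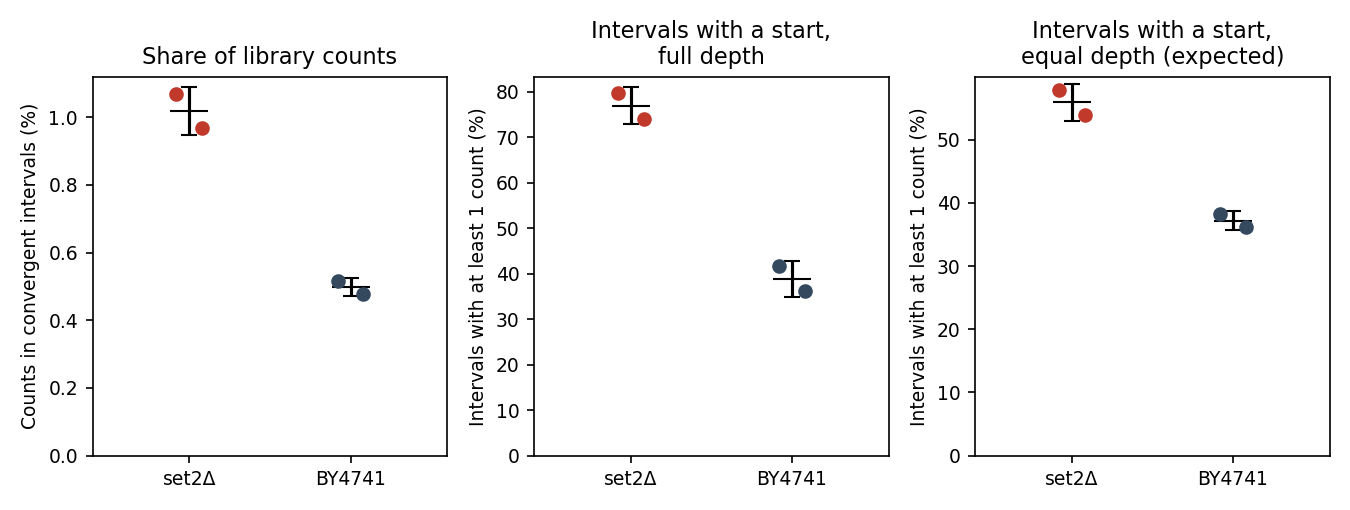
Share of library counts in convergent intervals (left), share of the 1398 intervals with at least 1 count at full depth (middle) and expected at the depth of the shallowest library (right), in percent, for *set2*Δ and BY4741. Points are libraries and bars give the mean and SD of 2. Both *set2*Δ libraries lie above both BY4741 libraries in each panel, and the gap between the strain means is smaller at equal depth (55.9 and 37.2%) than at full depth (76.9 and 38.9%).

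The density of starts set the convergent intervals apart from strands that hold annotated promoters. Per kilobase of strand, convergent intervals had 13.7 and 12.5 counts per 1000000 library counts (CPM) in *set2*Δ and 6.64 and 6.16 in BY4741. Between tandem genes, which point the same way, the strand antisense to both genes had 16.9 and 15.7 in *set2*Δ and 10.1 and 9.13 in BY4741, a ratio of means of 1.70. The strand of both tandem genes, which holds the promoter of the downstream gene, had 261 and 268 in *set2*Δ and 301 and 306 in BY4741, a ratio of 0.870. The 1322 divergent intervals, which hold promoters on both strands, had 233 and 242 in *set2*Δ and 277 and 283 in BY4741, a ratio of 0.849. Levels in convergent intervals were thus far below those of strands with promoters, and in every library also below the antisense strand of tandem intervals. As shares of 1 total, a lower share of promoters raises that of other regions. The strand of both tandem genes held 29.3 and 30.2% of the counts in *set2*Δ and 33.9 and 34.4% in BY4741. Divergent intervals held 32.0 and 33.3% in *set2*Δ and 38.1 and 38.9% in BY4741. How much of the ratio of 2.05 follows from these shares was not tested. In RNA of whole cultures, more starts per cell and more cells with starts cannot be told apart.

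Starts were spread over many intervals. At least 1 count was found in 1115 and 1035 of the 1398 intervals in *set2*Δ, or 79.8 and 74.0%, against 583 and 505 in BY4741, or 41.7 and 36.1%. Deeper libraries reach more intervals, so the expected share was also computed at the 375442 counts of the shallowest library. It was 57.9 and 53.8% in *set2*Δ and 38.2 and 36.1% in BY4741, a difference of means of 18.7 percentage points (p = 0.33, exact permutation test, two-sided). Both strands of an interval were used in 17.8 and 14.96% of the intervals in *set2*Δ and in 7.90 and 7.23% in BY4741 at that depth. At full depth, 331 intervals had counts in all 4 libraries, and 173 intervals, with a median length of 126 bp, had no count anywhere. Counts in both *set2*Δ libraries and none in BY4741 were found in 317 intervals, and the reverse in 0. The greater depth of the *set2*Δ libraries enters these numbers, and like numbers over other regions were not computed. The 100 intervals with the most counts in *set2*Δ held 50.9 and 52.5% of the interval counts in *set2*Δ and 53.7 and 50.1% in BY4741, similar shares in both strains.

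A minority of the bases was used again in the replicates. The *set2*Δ libraries used 8838 and 6978 positions and the BY4741 libraries 1823 and 1468. Of 15232 positions with any count in the intervals, 2341 had counts in both *set2*Δ libraries and 265 in both BY4741 libraries, and 201 were in both sets. These are 8.59% of the positions shared by the *set2*Δ libraries and 75.8% of those shared by the BY4741 libraries. At the strictest level, 54 positions in 36 intervals had 5 or more counts in each *set2*Δ library and none in BY4741, while 0 positions had the reverse. In BY4741, 20 plus-strand and 12 minus-strand positions had 5 or more counts in replicate 1, and 14 and 3 in replicate 2. Few positions could thus have shown the reverse. The depth of the *set2*Δ libraries enters all of these numbers, and like numbers over the rest of the genome were not computed.

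Density differed with the length of the interval. Per kilobase of strand, intervals of 50 to 99 bp had 5.86 and 4.87 CPM in *set2*Δ and 2.30 and 3.26 in BY4741. Those of 300 to 499 bp had 19.3 and 17.97 in *set2*Δ, against 7.74 and 7.31 in BY4741, and those of 500 to 1500 bp had 13.9 and 12.8 in *set2*Δ and 8.59 and 7.63 in BY4741. The highest density was thus that of 300 to 499 bp in *set2*Δ and that of 500 to 1500 bp in BY4741. The ratio of *set2*Δ to BY4741 was 1.93 at 50 to 99 bp, 2.03 from 100 bp to under 200 bp, 2.11 at 200 to 299 bp, 2.47 at 300 to 499 bp and 1.65 at 500 to 1500 bp. In each of the 5 length classes both *set2*Δ libraries lay above both BY4741 libraries.

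Starts were also placed by their distance from the gene end. The median start was 172 and 177 bp past the end of the same-strand gene in *set2*Δ and 157 and 149 bp in BY4741, with means of 175 ± 3.54 and 153 ± 5.66 bp (SD, n = 2 each; p = 0.33, exact permutation test, two-sided). Without the 50 bp next to each gene end the medians were 193 and 198 bp in *set2*Δ and 198 and 181 bp in BY4741 (p = 1.0, exact permutation test, two-sided), so that they then overlapped. The first 50 bp past the gene end held 16.5 and 14.5% of the interval counts in *set2*Δ and 20.5 and 23.6% in BY4741. The bases from 201 to 300 bp held 17.2 and 18.6% in *set2*Δ and 11.1 and 11.3% in BY4741.

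Expressed as density over all intervals, the ratio of *set2*Δ to BY4741 grew with distance over the first 300 bp. From 1 to 50 bp past the gene end, 12.6 and 10.0 CPM per kb were found in *set2*Δ and 7.58 and 8.08 in BY4741, a ratio of 1.44. The ratio was 1.83 from 51 to 100 bp, 2.25 from 101 to 150 bp and 2.94 from 151 to 200 bp. From 201 to 300 bp, 15.1 and 14.8 in *set2*Δ stood against 4.72 and 4.44 in BY4741, a ratio of 3.27. Farther out it was 1.91 up to 500 bp and 1.59 beyond. As only long intervals reach the larger distances, the ratio was also taken within 1 length class. In the 284 intervals of 300 to 499 bp it was 1.70, 1.63, 2.26, 3.07 and 4.07 over the same first 5 windows, and in the 361 intervals of 200 to 299 bp it was 1.27, 1.99, 2.39 and 3.49 over the first 4. Seen from the other end, the ratio was 2.23 in the 50 bp before the end of the opposite gene and 2.85 from 101 to 150 bp before it.

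**Figure D2:**
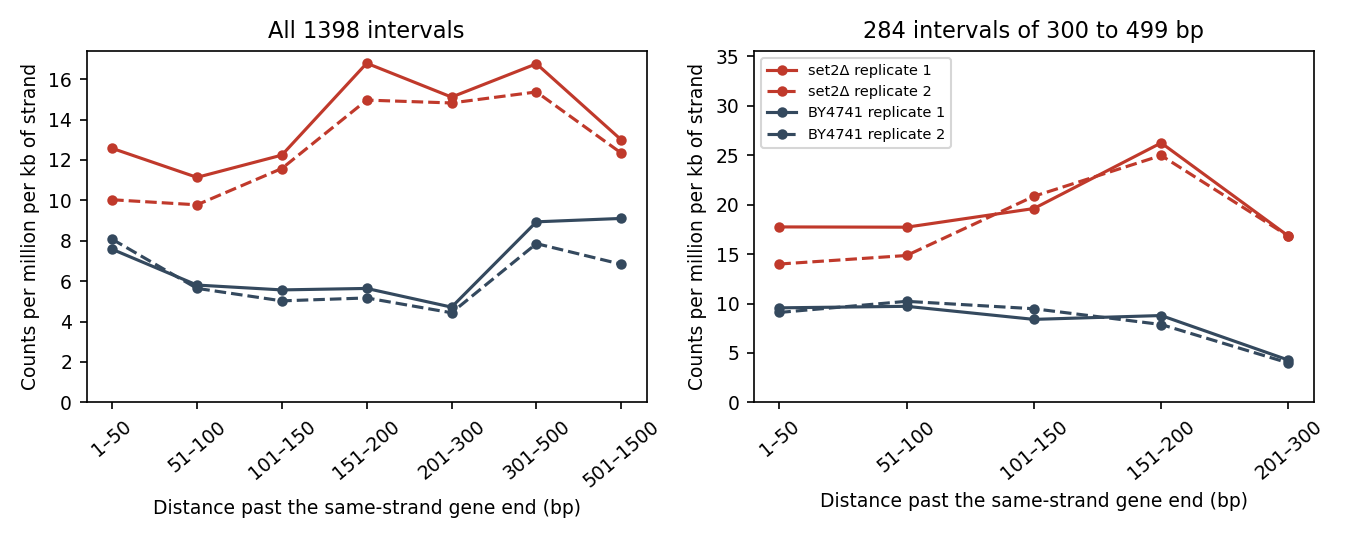
Density of starts (CPM per kb of strand) against the distance past the end of the same-strand gene (bp, in unequal windows), for all 1398 intervals (left) and for the 284 intervals of 300 to 499 bp (right). Lines are libraries. In the right panel *set2*Δ peaks at 151 to 200 bp while BY4741 falls off beyond 200 bp, and the ratio of the strains is 1.70 next to the gene end and 4.07 from 201 to 300 bp.

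The gene ends on either side were measured the same way. On the sense strand of the last 500 bp of the same-strand genes, densities in windows of 50 bp ran from 18.5 to 58.0 CPM per kb in *set2*Δ and from 12.8 to 37.6 in BY4741, and the ratio was between 1.32 and 1.84 in the 10 windows. The last 50 bp of the genes had the lowest density, 21.1 and 18.5 in *set2*Δ and 14.2 and 12.8 in BY4741. Beyond the interval, the density of antisense starts inside the opposite gene was highest next to its end in both strains. It was 10.8 and 10.1 in *set2*Δ and 6.64 and 6.54 in BY4741 in the first 50 bp, and 4.38 and 3.81 in *set2*Δ and 1.43 and 1.33 in BY4741 from 251 to 300 bp. From 351 to 400 bp it was 4.17 and 3.80 in *set2*Δ and 3.20 and 3.30 in BY4741, higher again in BY4741, and from 401 to 450 bp 3.08 and 2.24 in *set2*Δ and 0.612 and 0.781 in BY4741. Ratios in these windows were between 1.23 and 3.82.

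Single sides were compared in a fit over 14306 features, the 2 strands of every annotated gene and of every interval between genes that had at least 10 counts over the 4 libraries. Of the 2796 sides, 810 had no count, 1407 had 1 to 9 counts and 579 were tested. CPM values of single sides below refer to library sizes scaled by TMM (edgeR's trimmed mean of M-values), while densities per kb stay on library totals. With edgeR's quasi-likelihood test and an adjusted p below 0.1, 161 sides in 152 intervals were higher in *set2*Δ, 20 sides in 19 intervals were lower, and 398 passed in neither direction. The 161 are 27.8% of the tested sides, beside 26.5% of all features called higher, so that the share of higher calls was close to the background. The 20 are 3.45% of the tested sides, beside 20.5% of all features called lower. The median log2 fold change was 1.07 over the tested sides and 0.26 over all features tested. As 93 tested sides had no count in BY4741, fitted changes depend on the prior count there, and with those sides set to 3 counts for the BY4741 libraries together the medians were 0.58 and 0.21.

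Convergent sides are weakly used, and the share of features called rose with the count. The tested sides had a median of 9 counts per *set2*Δ library and 1 per BY4741 library. Among features with 20 to 49 counts in all, 27.5% of the 193 sides and 19.4% of the 2747 features of any kind were higher, and 3.11 and 7.68% were lower. With 50 to 99 counts, 48.5% of the 68 sides and 30.8% of the 2532 features were higher and 2.94 and 10.5% were lower. With 100 to 499 counts, 48.1% of 54 sides and 37.5% of 5222 features were higher and 14.8 and 22.2% were lower, and with 10 to 19 counts the shares of higher calls were 18.6 and 17.9%. Within these classes the median log2 fold changes lay closer together than the 1.07 and 0.26 of all counts. They were 1.18 over the sides and 0.76 over all features at 10 to 19 counts, and 0.88 and 0.51 at 20 to 49. At 50 to 99 counts they were 1.02 and 0.50, and at 100 to 499 counts 0.63 and 0.26. Splits of higher and lower calls like those of the sides were seen on strands antisense to genes. Antisense strands of genes were higher in 36.8% and lower in 4.88% of 1764 tests, and antisense strands of tandem intervals were higher in 21.7% and lower in 4.62% of 909. Sides of divergent intervals were higher in 19.7% and lower in 38.6% of 2433 tests.

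The level of the calls depended on the scaling. Scaling to library totals moved the median of all features to 0.65 and scaling to divergent intervals to 0.88, and the sides then stood at 1.45 and 1.68, which is 0.81 and 0.80 above the features as a whole, as in the fit with TMM (0.81). These gaps were not matched for count. Cyclic loess, which removes any trend of the fold change with the level, put all features at 0.09 and the sides at 0.33, 0.24 above. Of the sides called, 89.0% were higher with TMM, 95.7% with library totals, 99.3% with scaling to divergent intervals, 62.5% with loess offsets, 80.1% with counts inverted for a limit of 16 and 77.8% without positions of 8 or more counts. With loess offsets 12.95% of sides and 20.4% of all features were higher, 7.77 and 17.6% lower.

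**Figure D3:**
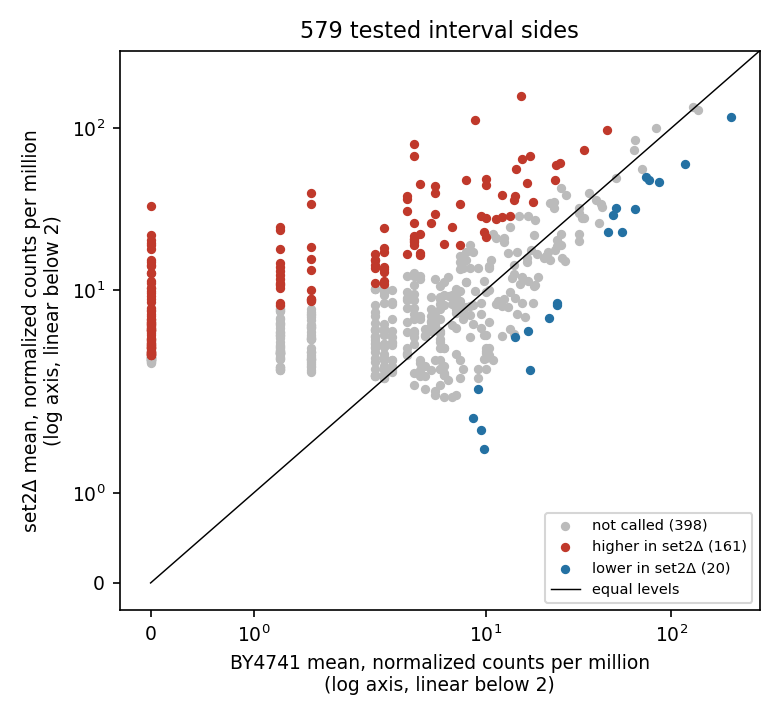
Mean CPM in *set2*Δ (vertical) against BY4741 (horizontal) for the 579 tested sides of convergent intervals, on log axes that are linear below 2. Red points were higher in *set2*Δ (161), blue points lower (20) and grey points not called (398) at an adjusted p below 0.1 in edgeR, and the line marks equal levels. Of the 161 red points, 73 lie at 0 in BY4741.

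Among called sides that averaged 20 counts or more in their higher strain and whose strains did not overlap, 71 were higher and 6 lower. An average of 20 counts is reached more easily in the deeper *set2*Δ libraries, and the rule was not applied to all features, so this split has no background. The 10 higher sides with the highest ratio of mean CPM are described in full. The side past PSP2, which encodes an RNA-binding protein with RGG motifs, faces the phosphatase gene PPZ1 (chrXIII:238732-239457). It had 158 and 143 counts in *set2*Δ and 2 and 4 in BY4741, or 107 and 117 CPM in *set2*Δ against 5.03 and 12.5 in BY4741. The strains did not overlap, and the log2 fold change was 3.72 with a standard error of 0.38 (edgeR, adjusted p = 2.74e-13), and 3.12 without replicate 1 of BY4741 and 4.44 without replicate 2. Its counts lay on 76 positions, and the most used of them held 10.1% of the counts. At the 5′ window of PSP2 itself, which spans 250 bp before the start codon and just under 200 bp after it, the log2 fold change was 0.04 with a standard error of 0.25 (edgeR, adjusted p = 0.89).

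The side past VPS41, a subunit of the HOPS complex that tethers vesicles to the vacuole, faces PDC2, a transcription factor gene of thiamine and pyruvate decarboxylase metabolism (chrIV:606987-607303). With 230 and 197 counts in *set2*Δ, against 11 and 1 in BY4741, it was the most used of the 10. These were 156 and 161 CPM in *set2*Δ and 27.6 and 3.12 in BY4741, so that the BY4741 libraries differed widely from each other and were both far below *set2*Δ. The log2 fold change was 3.23 with a standard error of 0.32 (edgeR, adjusted p = 5.69e-14), and 5.58 without replicate 1 of BY4741 and 2.51 without replicate 2. The 5′ windows of both neighbours were also higher, VPS41 by 0.97 and PDC2 by 1.64 on the log2 scale (edgeR, adjusted p = 0.0023 and 4.35e-05).

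CDC24 encodes the exchange factor that activates the polarity GTPase Cdc42, and the opposite gene CLN3 a G1 cyclin (chrI:65405-65777). The CDC24 side had 123 and 93 counts in *set2*Δ and 2 and 1 in BY4741, which is 83.6 and 75.8 CPM in *set2*Δ against 5.03 and 3.12 in BY4741. Its log2 fold change was 4.21 with a standard error of 0.48 (edgeR, adjusted p = 9.91e-12), and the ratio of the summed counts was 19.2 with a 95% counting interval of 6.47 to 93.6. MPT5, also named PUF5, encodes an mRNA-binding protein of the Pumilio family. Its side toward YGL176C (chrVII:170572-171414) had 111 and 73 counts in *set2*Δ and 2 and 1 in BY4741, or 75.4 and 59.5 CPM in *set2*Δ against 5.03 and 3.12 in BY4741. The log2 fold change was 3.98 with a standard error of 0.50 (edgeR, adjusted p = 3.66e-10). On both sides every *set2*Δ value exceeded every BY4741 value by more than 10 times, and the most used start lay 98 bp past CDC24 and 142 bp past MPT5.

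For the other 6 of the 10, a single count was found in BY4741. The side past EMC6, which encodes a subunit of the endoplasmic reticulum membrane protein complex, faces PUF3, another Pumilio family gene (chrXII:121649-122074). It had 61 and 46 counts in *set2*Δ and 0 and 1 in BY4741, a ratio of 28.5 with a counting interval of 5.001 to 1135 (edgeR, adjusted p = 2.42e-07). At the 5′ window of EMC6 the change went the other way, with a log2 fold change of -1.05 and a standard error of 0.16 (edgeR, adjusted p = 2.41e-10). The side past the autophagy gene ATG12, toward the pyruvate carboxylase gene PYC2, had 36 and 53 counts in *set2*Δ and 0 and 1 in BY4741. The side past the cytosolic leucyl-tRNA synthetase gene CDC60 had 30 and 35 in *set2*Δ and 1 and 0 in BY4741. The sides past RTN2, a reticulon gene, IMP4, whose product acts in ribosomal RNA processing, and ART10, an arrestin-related gene, had 23 to 39 counts per *set2*Δ library and 0 or 1 per BY4741 library. For these 6 sides the ratios of summed counts ran from 12.8 to 28.5 and the lower ends of their counting intervals from 2.19 to 5.001. All 10 sides stayed past the threshold in each of the 19 alternatives run for them, library left out included. When the BY4741 library without the count was left out, the log2 fold changes of the 6 sides with a single count lay between 2.47 and 3.59.

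**Figure D4:**
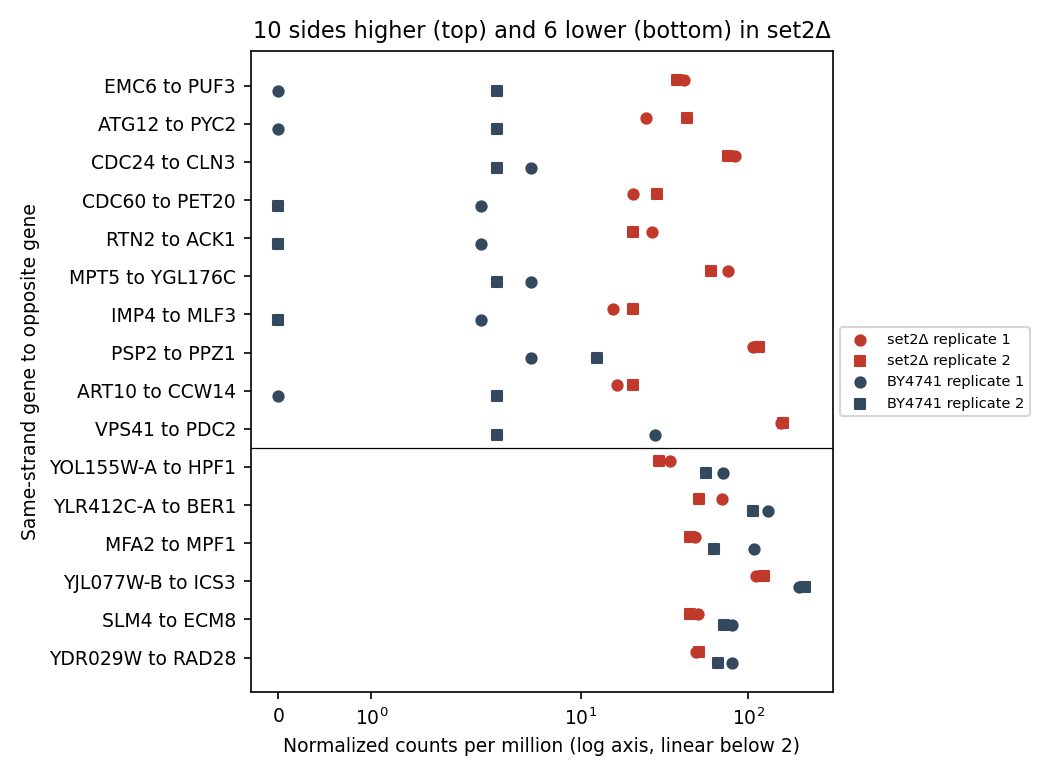
CPM (log axis, linear below 2) of the 10 sides with the highest ratio of *set2*Δ to BY4741 (above the line) and the 6 lowest (below it), each row a side named by its same-strand and opposite gene. Points are libraries, with *set2*Δ above BY4741 in each row. In the upper rows *set2*Δ values lie between 15.6 and 161 and BY4741 values between 0 and 27.6, and in the lower rows the strains differ less, with *set2*Δ below BY4741.

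Sides without any BY4741 count give only a bound. There were 73 of them among the 161 higher sides, and the largest was that past TOM1, which encodes a ubiquitin ligase, toward HEH2, with 54 and 36 counts in *set2*Δ and 0 and 0 in BY4741. It was at least 7.98-fold higher, taking 3 counts in BY4741, both libraries together, as the floor. The sides past SKI8, a component of the Ski complex of RNA decay, and past GUT2, the mitochondrial glycerol-3-phosphate dehydrogenase gene, were at least 5.23-fold and 4.97-fold higher on the same basis. With such sides at their floor, 149 of the 161 higher sides kept a ratio above 1 and the median log2 ratio of the 161 was 1.59.

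Both strands were higher in 9 of the 152 intervals with a higher side. Between HEM1, the first enzyme of heme synthesis, and RTN1 (chrIV:929099-929469), the HEM1 side had 95 and 69 counts in *set2*Δ and 10 and 8 in BY4741, a log2 fold change of 1.27 with a standard error of 0.32 (edgeR, adjusted p = 0.00091). The RTN1 side had 42 and 40 counts in *set2*Δ and 3 and 0 in BY4741. Between MET13, a methylenetetrahydrofolate reductase gene, and MON1 (chrVII:274323-274779), the MET13 side had 100 and 74 counts in *set2*Δ and 5 and 6 in BY4741, and the MON1 side 48 and 54 in *set2*Δ and 6 and 3 in BY4741. The PPZ1 side opposite PSP2 had 62 and 59 counts in *set2*Δ and 1 and 2 in BY4741 (log2 fold change 3.38, standard error 0.56; edgeR, adjusted p = 5.99e-07). The other 6 such intervals were those of DOS2 and DOA4, KIN1 and INO2, CLG1 and SKI8, MPT5 and YGL176C, UBP7 and GUT2, and SFK1 and LPX2. Starts on both strands follow from how these 9 were chosen.

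The median log2 fold change of the 20 lower sides was -1.31, and every one had counts in both strains. The lowest adjusted p was that of the side past YJL077W-B toward ICS3 (chrX:294146-294665), with 164 and 152 counts in *set2*Δ and 80 and 70 in BY4741. These were 111 and 124 CPM in *set2*Δ and 201 and 219 in BY4741, with no overlap, a log2 fold change of -0.83 and a standard error of 0.17 (edgeR, adjusted p = 4.36e-05). The change was -0.20 with scaling to divergent intervals (edgeR, adjusted p = 0.29) and -0.61 without the 50 bp next to the gene ends (edgeR, adjusted p = 0.14). The next start codon on that strand, that of YJL077W-A, lay 134 bp beyond the interval and 146 bp from the leading start. Whether the starts of this side belong to YJL077W-A was not tested.

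The side past MFA2, which encodes the mating pheromone a-factor, had 71 and 55 counts in *set2*Δ and 43 and 20 in BY4741, a log2 fold change of -0.91 (standard error 0.24; edgeR, adjusted p = 0.0017). Its most used start lay 16 bp past the gene, and without the 50 bp next to the gene end the change was -0.15 (edgeR, adjusted p = 0.92). Without replicate 1 of BY4741 it was -0.45 (edgeR, adjusted p = 0.34). The side past SLM4, a subunit of the EGO complex on the vacuole, had 74 and 55 counts in *set2*Δ and 32 and 23 in BY4741, a change of -0.68 (edgeR, adjusted p = 0.022), which was -0.05 with scaling to divergent intervals (edgeR, adjusted p = 0.89), -0.61 without replicate 2 of *set2*Δ (edgeR, adjusted p = 0.13) and -0.61 without replicate 1 of BY4741 (edgeR, adjusted p = 0.16). The remaining 3 of the 6 lowest were the sides past YOL155W-A, YLR412C-A and YDR029W, at -1.004, -0.97 and -0.57. Only 26.4% of the positions of the YOL155W-A side start a unique 43 bp sequence, and its change was -0.53 without its highest position (edgeR, adjusted p = 0.31). The change of YDR029W was 0.06 with scaling to divergent intervals (edgeR, adjusted p = 0.85), and each library other than replicate 2 of BY4741 ended its call when left out. With scaling to divergent intervals, 0 of these 6 sides were called (edgeR, adjusted p from 0.18 to 0.89). The leading position held 17 and 18 counts in *set2*Δ and 14 and 15 in BY4741 past YJL077W-B. Past YOL155W-A it held 15 and 13, against 14 and 11, and past YDR029W 13 and 15, against 13 and 10. Such counts lie near 16, where they did not follow depth, and whether this lowered the sides was not tested. Past MFA2, SLM4 and YLR412C-A the leading position held 4 to 8 counts per BY4741 library.

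The 5 intervals with the highest level over the 4 libraries were those of YJL077W-B and ICS3, CHS5 and JIP3, MSS4 and YDR209C, DBP2 and CYB5, and BER1 and YLR412C-A. Lower sides were called in 2 of them, those of YJL077W-B and YLR412C-A described above and the ICS3 side opposite YJL077W-B, with 5 and 0 counts in *set2*Δ and 5 and 2 in BY4741 (log2 fold change -2.31, standard error 0.95; edgeR, adjusted p = 0.045). The ICS3 side lost its call in 5 of the 15 alternatives run for it, among them that without replicate 2 of *set2*Δ (-1.48). The next start codon on the strand of the ICS3 side, that of PRY3, lay 165 bp beyond the interval. On the MSS4 side, past the gene of a phosphatidylinositol phosphate kinase, 204 and 147 counts were found in *set2*Δ and 56 and 44 in BY4741, which is 139 and 120 CPM in *set2*Δ and 141 and 137 in BY4741. The log2 fold change was -0.10 with a standard error of 0.19 (edgeR, adjusted p = 0.69), and 0.53 with scaling to divergent intervals (edgeR, adjusted p = 0.0067). Its leading start lay 9 bp before the end of YDR209C and 47 bp before the start codon of CPP2, the next coding gene on that strand, which begins within the 414 bp of YDR209C. On the CHS5 side the next start codon, that of MID2, lay 8 bp beyond the interval, within the 378 bp of JIP3, and the side had 141 and 129 counts in *set2*Δ and 36 and 24 in BY4741 (log2 fold change 0.26, standard error 0.21; edgeR, adjusted p = 0.34). It was called higher with scaling to divergent intervals (0.89; edgeR, adjusted p = 0.00014) and without its highest position (0.64; edgeR, adjusted p = 0.038). On the side past DBP2, a DEAD-box RNA helicase gene with an intron, 187 and 176 counts in *set2*Δ stood against 54 and 40 in BY4741 (log2 fold change 0.04, standard error 0.19; edgeR, adjusted p = 0.88), or a change of 0.67 with scaling to divergent intervals (edgeR, adjusted p = 0.00058). The next start codon of that strand, that of YAF9, lay 3159 bp beyond the interval.

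Of the 2796 sides, 46 had the next coding start on their own strand within 500 bp of the far edge, a limit chosen after the values were seen. They had 40.9 and 37.5 CPM per kb in *set2*Δ and 39.7 and 35.0 in BY4741, a ratio of 1.05. The other 2750 sides had 13.3 and 12 in *set2*Δ and 6.10 and 5.68 in BY4741, a ratio of 2.15. Near a start codon 1 of 16 tested sides was higher and 3 were lower, and elsewhere 160 of 563 were higher and 17 lower.

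To ask whether the interval and the gene end before it differed in their change, each side was set against the last 300 bp of the same-strand gene in 1 model. Both windows had at least 10 counts for 440 convergent sides among 1770 gene ends of any orientation. The log2 fold change was more positive in the interval than at the gene end for 38 sides, or 8.64% of those tested, beside 10.7% of all gene ends, and more negative for 1, or 0.227%, beside 6.44% (edgeR, interaction term, adjusted p below 0.1). The share of the 38 was thus no higher than among gene ends in general, and the median interaction over the 440 sides was 0.86 on the log2 scale. Summed over them, the intervals held 8165 and 6504 counts in *set2*Δ and 1346 and 1056 in BY4741, and the last 300 bp of the genes 12437 and 9664 in *set2*Δ and 3824 and 2907 in BY4741. No side was called when either *set2*Δ library was left out (24 sides without replicate 1 and 25 without replicate 2 had a more positive change in the interval at an unadjusted p below 0.05 in edgeR), 9 were called more positive without replicate 1 of BY4741 and 1 without replicate 2, and the single side with a more negative change, past HFA1, was called in none of the 4.

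The term adds up both windows. At the gene end, the mean normalized level was lower in *set2*Δ for 37 of the 38 sides with TMM and for 32 with library totals, with a median log2 ratio of -1.24 with TMM, and it was lower for 217 of all 440 sides with TMM. In the interval, 23 of the 38 were among the 161 higher sides, which is 60.5% of the 38 and 14.3% of the 161, and 15 were not called higher. The PSP2 side had 158 and 143 interval counts in *set2*Δ and 2 and 4 in BY4741, while the end of PSP2 had 12 and 6 counts in *set2*Δ and 4 and 5 in BY4741 (interaction 4.62; edgeR, adjusted p = 0.0020). RPL17B, a gene of the large ribosomal subunit, had 58 and 49 counts past its end in *set2*Δ and 3 and 1 in BY4741, with 62 and 38 in its last 300 bp in *set2*Δ and 36 and 26 in BY4741 (interaction 4.03; edgeR, adjusted p = 0.00012). VMA2, a subunit gene of the vacuolar ATPase, had 44 and 42 interval counts in *set2*Δ and 11 and 6 in BY4741, and 117 and 72 at its end in *set2*Δ and 96 and 100 in BY4741 (interaction 2.40; edgeR, adjusted p = 0.00088). The interval itself was not called for VMA2 (log2 fold change 0.43, standard error 0.38; edgeR, adjusted p = 0.39). For HFA1, a mitochondrial acetyl-CoA carboxylase gene, the interval had 10 and 12 counts in *set2*Δ and 8 and 9 in BY4741 and the gene end 25 and 24 in *set2*Δ and 3 and 2 in BY4741 (interaction -2.89; edgeR, adjusted p = 0.024).

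The density of starts differed with the level of the same-strand gene. Sides were put into quintiles by the BY4741 counts in the 5′ window of the same-strand gene. In the top quintile, with a median of 498 CPM at the 5′ window, the 559 sides had 20.7 and 18.4 CPM per kb in *set2*Δ and 13.3 and 14.0 in BY4741, a ratio of 1.43. The quintile below it had 12 and 11 in *set2*Δ and 5.27 and 5.11 in BY4741. In the quintile next to the lowest they had 12.4 and 11.2 in *set2*Δ and 3.34 and 2.89 in BY4741, a ratio of 3.79, and in the lowest 13.1 and 11.7 in *set2*Δ and 7.24 and 5.63 in BY4741, a ratio of 1.93. The lowest quintile also had the longest intervals, with a median of 280 bp against 197 to 237 bp in the others. By quintiles of the opposite gene the ratio ran between 1.78 and 2.83, and the top quintile had 12.5 and 11.0 in *set2*Δ and 5.56 and 5.51 in BY4741, so that a rise at the top was seen for the same-strand gene only, a contrast that was not tested.

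**Figure D5:**
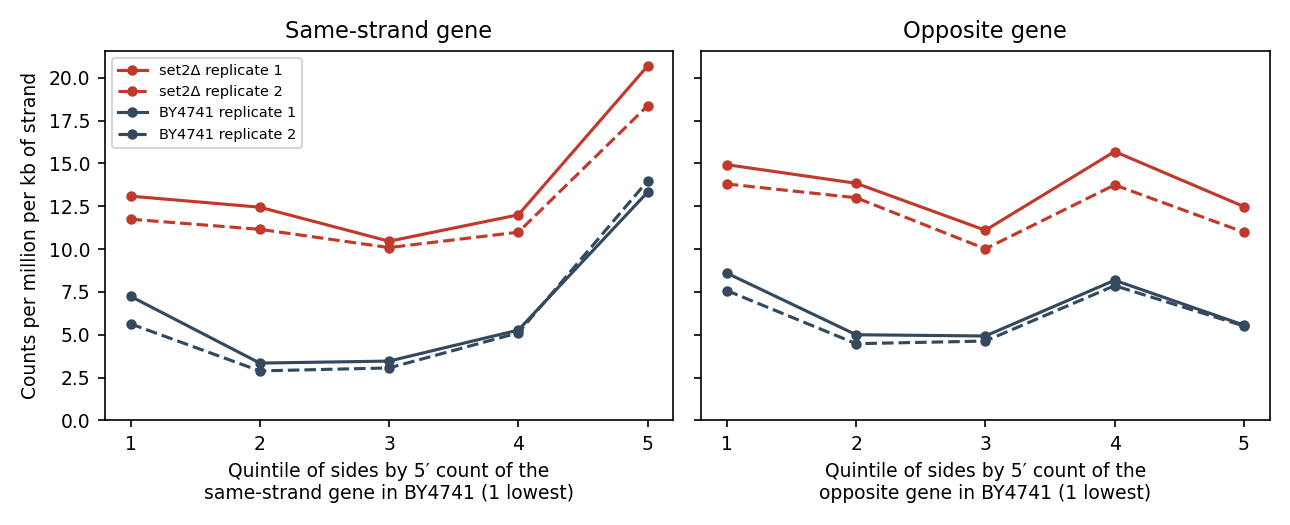
Density of starts in convergent intervals (CPM per kb of strand) by quintiles of the sides, ordered by the BY4741 level at the 5′ window of the same-strand gene (left) or of the opposite gene (right), from lowest (1) to highest (5). Lines are libraries. Past the most active same-strand genes, BY4741 rises to 13.3 and 14.0 and *set2*Δ to 20.7 and 18.4, and no such rise is seen by the opposite gene.

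The 5′ windows of the genes beside called sides were read from a fit over 5236 windows, of which 32.8% were higher and 30.2% lower in *set2*Δ. Of the same-strand genes of higher sides, 65 of 152 tested (42.8%) were higher at their 5′ window and 27 (17.8%) lower. Of those of sides that were not called, 29.3% of 369 were higher and 42.8% lower. The opposite genes of higher sides were close to all windows, with 32.0% of 147 higher and 27.2% lower. For the lower sides, 11 of 13 same-strand genes were lower at the 5′ window and 0 were higher, among them MFA2 at -1.13 and SLM4 at -0.98 on the log2 scale (edgeR, adjusted p = 5.32e-20 and 6.47e-09).

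Groups of genes were followed past their ends. For cytoplasmic ribosomal protein genes, 65 sides were members and all had counts, with 782 and 589 in *set2*Δ and 156 and 156 in BY4741. Per kilobase these were 30.4 and 26.4 CPM in *set2*Δ and 17.0 and 20.5 in BY4741, above the density of all convergent sides in both strains. Of 45 tested sides 9 were higher and 4 lower, beside 27.8 and 3.45% of all tested sides and 26.5 and 20.5% of all features, with a median log2 fold change of 0.40, below the 1.07 of all tested sides. RPL33A was among the higher, with 38 and 38 counts in *set2*Δ and 6 and 3 in BY4741 (log2 fold change 1.16, standard error 0.48; edgeR, adjusted p = 0.045). RPS20 was among the lower, with 9 and 9 counts in *set2*Δ and 5 and 10 in BY4741 (log2 fold change -1.63, standard error 0.58; edgeR, adjusted p = 0.019), as was RPP1A, an acidic stalk protein gene, with 8 and 13 in *set2*Δ and 8 and 9 in BY4741 (log2 fold change -1.59, standard error 0.54; edgeR, adjusted p = 0.014). The change was more positive in the interval than at the gene end for 9 of 44 tested ribosomal protein sides and more negative for 0, beside 10.7 and 6.44% of all gene ends. Of these 9, 4 had a higher interval, among them RPL17B and RPS25A, and in all 9 the gene end was lower in *set2*Δ with TMM. The interval past RPL3 was not called, with 13 and 12 counts in *set2*Δ and 4 and 1 in BY4741, and the last 300 bp of RPL3 had 22 and 14 counts in *set2*Δ and 21 and 14 in BY4741.

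The other lists had few tested members. All 6 histone gene sides were tested with edgeR and 0 were called, nor was any at an unadjusted p below 0.05. Of all tested sides 27.8% were higher and 3.45% lower, and of all features 26.5 and 20.5%, and 6 tests are few for such a comparison. The histone sides held 152 and 131 counts in *set2*Δ and 39 and 30 in BY4741, with a median log2 fold change of 0.18. Their density, 55.0 and 54.7 CPM per kb in *set2*Δ and 39.5 and 36.7 in BY4741, was above that of the ribosomal protein genes. HTB2, a histone H2B gene, had 25 and 21 counts past its end in *set2*Δ and 8 and 3 in BY4741, and 41 and 42 in its last 300 bp in *set2*Δ and 33 and 24 in BY4741, and the change was more positive in the interval for it alone among the 6 (interaction 1.52; edgeR, adjusted p = 0.084). Of 39 sides past mitochondrial ribosomal protein genes, 5 were tested and 2 were higher, beside 27.8% of all tested sides and 26.5% of all features, those of MRPL6 (19 and 17 counts in *set2*Δ, 1 and 1 in BY4741) and MRPL39 (8 and 4 in *set2*Δ, 0 and 0 in BY4741). Of 11 sides past genes of glycolysis and fermentation, with 31 and 18 counts in *set2*Δ and 10 and 12 in BY4741, 2 were tested. Of 17 past proteasome genes, with 27 and 26 counts in *set2*Δ and 3 and 2 in BY4741, 1 was tested. On these 2 lists 0 sides were called, at the adjusted threshold or at an unadjusted p below 0.05 in edgeR. The shares of all tested sides and all features given above apply here too, and the tests are fewer still.

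Of the genes deleted in the strains, only LEU2 has a convergent interval in the set, with NFS1 (chrIII:92419-92776). It had 3 and 1 counts on the LEU2 strand in *set2*Δ and 0 and 0 in BY4741, and 2 and 6 on the NFS1 strand in *set2*Δ and 0 and 2 in BY4741. The genes that the study names in its text have 4 convergent intervals. Of their sides only that of TOD6, a transcription factor gene of ribosome biogenesis, toward SAS3 was tested, with 15 and 8 counts in *set2*Δ and 1 and 0 in BY4741 (log2 fold change 2.49, standard error 1.16; edgeR, adjusted p = 0.080). Its call was lost in 7 of the 16 alternatives run for it, among them those without replicate 2 of *set2*Δ and without replicate 2 of BY4741. Over the 16 the log2 fold change ran from 1.68 to 6.12. The intervals beside CHS3, ADA2 and STE11 had 0 to 2 counts per side and library.

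The sequence past the gene ends was also searched for a motif. TATATA, which reads the same on both strands and resembles an efficiency element of yeast polyadenylation signals, was present in the first 100 bp past 36.4% of 2508 gene ends in convergent intervals of at least that length and past 33.6% of 2487 in tandem intervals. It was there on 26.8% of 157 higher, 5 of 20 lower and 24.7% of 393 other tested sides. TATAAA or TATATA, searched on the strand of the RNA between 31 and 120 bp upstream, preceded 27 of the 83 leading starts (32.5%) with 5 or more counts in both libraries of *set2*Δ, and 24.2% of all bases of the same sides.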

How the data were processed

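The authors deposited, for each library and strand, raw, unnormalized counts of read 5′ ends by base, from reads aligned with Novoalign to R64-1-1 (base calling with CASAVA 1.8.2, both per the labels and methods). Reads with several alignments or clipped 5′ ends were removed by the authors. Minus-strand positions were moved by 42 bp, since they list the other end of the alignment. Genes and sequences came from RefSeq's R64 assembly, with 6431 nuclear genes. Counts were summed per strand over each gene and each interval between genes, bases shared by genes were left out, and 14306 features of at least 10 counts were fitted with edgeR 4.0.16 in R 4.3.3 (quasi-likelihood test, TMM, Benjamini-Hochberg over all features, adjusted p below 0.1, the threshold of the study's methods). The gene-end test used library as a factor and 1770 pairs of windows. Values per library were compared by exact permutation with scipy 1.17.1, and counting intervals are exact conditional 95% intervals. The fits were tested on simulated data in which only features of at least 50 counts were changed. The tested sides had a median of 21 counts over the 4 libraries, so recovery of changes at that level was not tested. Depth was 1099482 to 1267578 counts in *set2*Δ and 375442 to 452888 in BY4741, and limits what can be called in BY4741.

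The intervals, the gene lists and the tests were chosen with earlier results of these data known. The sides named are the 10 with the highest and the 6 with the lowest ratio among called sides with at least 20 counts on average in the higher strain and no overlap, the 5 most used intervals, and those beside deleted genes or genes that the study names. Two-sided exact tests cannot go below p = 0.33 here. The alternatives were DESeq2 1.42.0 and its size factors, library totals, scaling to divergent intervals, cyclic loess (limma 3.58.1), other filters and thresholds, high or leading positions left out, distinct positions, 50 bp left out at gene ends, minus-strand positions as listed, unique sequence only, interval lengths of 100 to 1000 bp, a replicate block and each library left out. Inverted counts, the quintiles by 5′ level, the 5′ windows beside called sides, the distance to the next start codon and the sequence motifs were added after the data were seen. Named higher sides without BY4741 counts and the examples of the gene-end test and of the 2-sided intervals were chosen after their values were seen.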

Additional observations from a re-analysis of the deposited data

How the results depend on the processing

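The number of sides higher in *set2*Δ, 161, was 49 with DESeq2 (203 sides without an adjusted p), 243 with library totals, 272 with scaling to divergent intervals, 75 with cyclic loess offsets, 101 with at least 30 counts, 105 without positions of 8 or more counts and 91 without the 50 bp next to each gene end. It was 88 to 110 when a library was left out. The 49 and the 75 were all among the 161, and the 243 and 272 included all 161. The number of lower sides, 20, was 5 with DESeq2, 11 with library totals, 2 with scaling to divergent intervals, 45 with loess offsets, 8 with distinct positions, 32 with minus-strand positions as listed, 31 with inverted counts and 8 to 17 with a library left out. The cause of these shifts was not tested. A filter or a left-out library also changed the number of sides tested, from 579 to 217 with at least 30 counts and to 547 without either BY4741 library. The 38 sides with a more positive change than the gene end were 17 at an adjusted p of 0.05, 60 with the last 500 bp and 0 to 9 with a library left out, and the 1 with a more negative change was 0 in each such run. At an unadjusted p below 0.05, 168 sides were higher and 22 lower.

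The difference in the share of library counts, 0.52 percentage points, was 0.82 with distinct positions, 0.39 without the 50 bp at gene ends, 0.80 as a share of counts between genes, 0.36 with inverted counts and 0.47 to 0.57 with a library left out. The difference in the share of intervals with starts, 38.0 points, was 18.7 at equal depth, and 16.7 to 20.8 there with a library left out. The median distance, 21.5 bp farther in *set2*Δ, was 37.0 bp farther without positions of 8 or more counts, 34.0 bp with minus-strand positions as listed, 6.0 bp without the 50 bp at gene ends and 17.5 to 25.5 bp with a library left out.

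Libraries with the same replicate number did not deviate together (r = -0.012 over 14306 features), and the numbers were not taken as pairs. With a replicate block 111 sides were higher and 15 lower, and 20 had a more positive and 1 a more negative change than the gene end. Of 474 alternative values for 26 named sides, 400 had the same direction and call, 38 lost the call, 10 gained one and 26 changed sign, 24 of these called neither before nor after. With scaling to divergent intervals the change of YDR029W was 0.062 and that of MSS4 0.53, the other 2. MSS4 (-0.10) was also 0.29 with library totals, 0.22 with loess offsets, 0.072 without the highest position and 0.047 without the 50 bp at gene ends. JIP3 (0.36) was -0.098 without positions of 8 or more counts and -0.22 with distinct positions. DBP2 (0.043) was -0.0030 with DESeq2's size factors, -0.10 both without positions of 8 or more counts and without the 50 bp, -0.45 with distinct positions, and -0.047 to 0.12 with a library left out (-0.047 without replicate 2 of *set2*Δ, -0.011 without replicate 2 of BY4741). CYB5 (0.53) was -0.43 with loess offsets and -0.29 without replicate 2 of BY4741, the lowest with a library left out, and 5.08 without replicate 1, where no BY4741 count is left and the value depends on the prior count. BER1 (-0.14) was 0.25 with library totals, 0.48 with scaling to divergent intervals, 0.20 with distinct positions, 0.46 without replicate 1 of *set2*Δ and -1.01 to 1.29 over the left-out libraries, the lowest without replicate 2 of *set2*Δ and the highest without replicate 2 of BY4741. NFS1 (0.087) was -1.003 with loess offsets, -0.21 without positions of 8 or more counts, -0.054 without the 50 bp, -0.14 with inverted counts and -1.07 without replicate 1 of BY4741.

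With 2 libraries per strain the spread is poorly known. BY4741 is shallow, at a median of 1 count per tested side and library, and 2217 sides had too few counts to test, so differences there were not detectable at this depth. Counts near 16 at a position do not follow depth, and barcode handling was not given in the sources used here.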
